A study of Homo sapiens with 16 samples.

Results

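Unstressed HEK293 cells were examined for downstream-of-gene transcripts (DoGs) in RNA of the SERIPH 2nd step and in hiAGPC RNA, which made up 4 of the 16 libraries of the study. The members were defined by preparation and condition, with earlier results of these data known. They were both control libraries of the SERIPH 2nd step, both control libraries of hiAGPC, and the DoG regions listed in each. HEK293 is a line derived from human embryonic kidney, and the control cells received fresh medium without sorbitol or cycloheximide. In hiAGPC, the acid guanidinium thiocyanate-phenol-chloroform (AGPC) mixture is heated, so that semi-extractable RNA is recovered together with the rest. In SERIPH, the aqueous phase of an unheated extraction is taken off as the 1st step, and the washed interphase is heated and extracted again as the 2nd step. Each preparation had 2 biological replicates of this 1 cell line. By the methods of the study, hiAGPC and conventional extractions were made alongside SERIPH from shared samples, and the 1st and 2nd steps come from 1 lysate. The sources used here do not say that a replicate number marks a shared sample. In all preparations, the libraries were stranded and depleted of rRNA. The remaining libraries were the control conventional AGPC and SERIPH 1st-step preparations and all 4 preparations under the DoG-inducing condition, in which cells were kept for 9 h in 200 mM sorbitol and 100 µg/mL cycloheximide. The cell line could not be checked against marker genes, because the data analysed here hold DoG regions and DoG abundance and no expression of the genes themselves.

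A DoG arises when RNA polymerase II does not terminate after the end of a gene and goes on transcribing into the flanking DNA. Most protein-coding transcripts end by cleavage and polyadenylation, which is directed by a hexamer such as AATAAA shortly before the cut, whereas mRNAs of replication-dependent histones end in a conserved stem-loop and carry no poly(A) tail. RNAs that stay in the interphase unless the sample is heated or sheared are called semi-extractable, and DoGs are often among them, together with RNAs that scaffold nuclear bodies. The comparison asks how the interphase fraction alone differs in its DoGs from a heated extraction that also holds the readily extractable RNA.

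Abundance was given as FPKM, fragments scaled to the length of the DoG region and to the reads of the library, over a single region per gene, for 3139 DoGs. For nearly all of them this is the longest region listed for the gene in any of the 16 libraries. FPKM is relative to the other RNA of its own library, so more of a DoG and less of other RNA cannot be told apart. The sequencing depth behind the values is unknown. The 4 libraries resembled each other within a preparation. Pearson's r across DoGs between replicates was 0.991 for the SERIPH 2nd step and 0.993 for hiAGPC on the log2(FPKM + 0.1) scale, where DoGs are not independent replicates. The median FPKM was 0.1 in each SERIPH 2nd-step replicate and 0.08 in each hiAGPC replicate. The SERIPH 2nd-step libraries were prepared from little RNA, and the amount of RNA and the preparation cannot be told apart.

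Gene ends of DoGs called in either direction are shown first, to show what the polyadenylation hexamer and the histone stem-loop look like there. Each sequence is the 30 bases up to the base before the listed DoG, on the transcribed strand, read from GRCh38. In the first 4, the polyadenylation hexamer AATAAA or ATTAAA is in capitals. The DoGs of THOC3 and BUB3 were higher in the SERIPH 2nd step, and those of SERINC1 and UBE2D1 were lower, so ends with a hexamer occurred in both directions.
THOC3, chr5:175916677-175916706, minus strand: tctAATAAAacacagctcttatctgttcta
BUB3, chr10:123170438-123170467, plus strand: tcttcattttaaAATAAAgttttgcacatg
SERINC1, chr6:122443348-122443377, minus strand: acctctaAATAAAtgaattcagagaaagtg
UBE2D1, chr10:58370722-58370751, plus strand: tttctttATTAAAgtttttgaaacttgcct
The 3 histone H4 genes among the lowest DoGs are shown with the histone stem-loop in capitals.
H4C4, chr6:26188710-26188739, minus strand: aaaaccaacGGCCCTTTTCAGGGCCaccta
H4C7, chr6:26246611-26246640, minus strand: atcgttaatGGCCCTTTTCAGGGCCgcgta
H4C11, chr6:27824451-27824480, plus strand: caataaaaGGCCCTTTTCAGGGCCacccta
The stem-loop ended 5 bases before the listed DoG of H4C4 and H4C7 and 6 bases before that of H4C11, whose end also holds AATAAA, left in lower case. The stem-loop was found, on the transcribed strand only, in the last 100 bases of 15 of the 3505 genes with a listed DoG in any library, and all 15 were histone genes. The polyadenylation hexamer was found in the last 30 bases of 1854 of the 3505 genes (52.9%), and here the gene end is the outermost end of the annotated gene, which need not be its main cleavage site. Of the 12 highest and the 12 lowest calls, 8 and 9 had no hexamer in these bases.

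More DoG-producing genes were listed in the interphase fraction. The SERIPH 2nd-step libraries listed 689 and 667 genes and the hiAGPC libraries 486 and 478, so that the lowest SERIPH 2nd-step number stood above the highest hiAGPC number. The means were 678 ± 15.6 and 482 ± 5.66 genes (SD, n = 2 each), a ratio of 1.41 (two-sided exact permutation test, p = 0.333, the smallest p that 2 against 2 libraries can give). In all, 812 genes were listed in at least 1 of the 4 libraries, and 372 in all 4. Both SERIPH 2nd-step libraries and no hiAGPC library listed 142 genes, whereas both hiAGPC libraries and no SERIPH 2nd-step library listed 31. A further 81 genes were listed in both SERIPH 2nd-step libraries and 1 hiAGPC library, and 21 in both hiAGPC libraries and 1 SERIPH 2nd-step library.

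The long DoGs were concentrated in the interphase fraction. DoGs of at least 50 kb numbered 46 in each SERIPH 2nd-step library and 18 and 17 in the hiAGPC libraries, and those of at least 100 kb numbered 20 in each SERIPH 2nd-step library against 4 and 5. The longest DoG, that of BUB3, a spindle checkpoint gene, reached 370 kb in each replicate of the SERIPH 2nd step, whereas the hiAGPC regions were 260 and 245 kb long. The median was 10 kb in each of the 4 libraries, the shortest length that was listed. Regions of 10 kb made up 50.1% and 51.9% of the SERIPH 2nd-step lists and 59.1% and 59.0% of the hiAGPC lists. Mean lengths were 22.02 ± 0.0354 kb and 17.2 ± 0.191 kb (SD, n = 2 each, two-sided exact permutation p = 0.333). The listed regions added up to 15.2 and 14.7 Mb in the SERIPH 2nd step and to 8.27 Mb in each hiAGPC library.

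**Figure D1:**
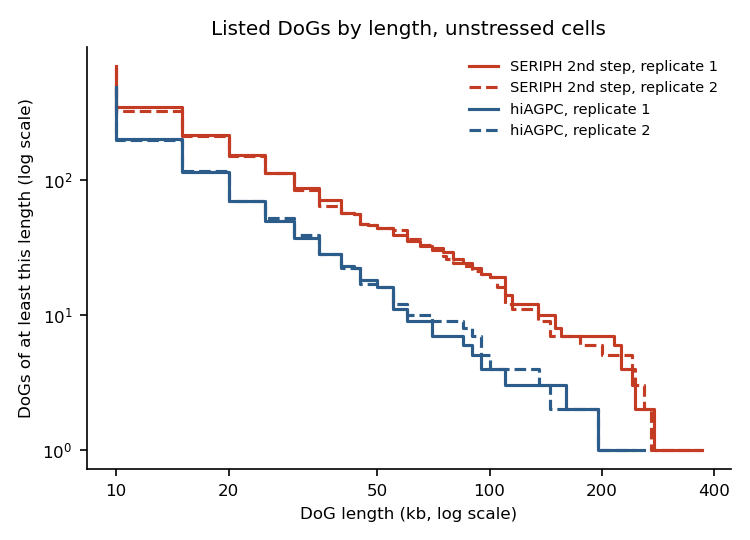
Number of listed DoGs (vertical axis, log scale) that are at least as long as the length on the horizontal axis (kb, log scale) in the 4 control libraries, 1 line per library. The lines of the replicates lie close together, and at 100 kb the SERIPH 2nd-step libraries hold 20 DoGs each against 4 and 5 in hiAGPC.

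The genes listed in one preparation alone differed in where else they were listed and in their surroundings. Of the 142 genes listed in both SERIPH 2nd-step libraries and no hiAGPC library, 17 were listed in any control conventional or SERIPH 1st-step library. Of the 31 genes of the reverse pattern, 28 were, and of the 372 genes listed in all 4 libraries, 308 were. Of the 81 genes in both SERIPH 2nd-step libraries and 1 hiAGPC library, 17 were. Of the 130 in 1 SERIPH 2nd-step library and no hiAGPC library, 11 were. All these sets were chosen by their hiAGPC listing, so the shares describe them and do not test them. The median length of the gene itself was 64.5 kb for the 142 genes (the first set), 28.5 kb for the 31 (the second set) and 40.6 kb among the 372 shared genes. Long genes were not particular to the first set. The median was 66.6 kb for the 21 genes listed in both hiAGPC libraries and 1 SERIPH 2nd-step library. It was 53.0 kb for the 81 genes listed in both SERIPH 2nd-step libraries and 1 hiAGPC library. The next gene on the same strand began at a median of 50.3 kb after the first set, 14.7 kb after the second and 37.2 kb after the shared genes. Of the hiAGPC set, 26 of 31 DoGs had the minimum length of 10 kb in both libraries, and of the SERIPH 2nd-step set, 78 of 142 did. The DoGs of the first set had a median FPKM of 0.238 in the conventional libraries, 0.4 in hiAGPC and 0.7 in the SERIPH 2nd step. Those of the second set had medians of 0.91, 0.79 and 0.49, in the same order of preparations. FPKM was given for 138 of the 142 and 26 of the 31 genes. The listing and the FPKM come from the same reads, so these levels describe the sets and do not test them.

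TMEM38B, which encodes a cation channel of the endoplasmic reticulum, was listed at 85 and 70 kb in the SERIPH 2nd step, at 20 kb in hiAGPC replicate 1 and not in hiAGPC replicate 2. Its DoG had FPKM of 0.93 and 1.03 in the SERIPH 2nd step and 0.44 in both hiAGPC libraries. The groups did not overlap, as was so for 1383 of the 3139 DoGs in this direction (44.1%) and 458 in the other (14.6%). The log2 fold change was 0.9985 ± 0.125 (SE, limma, adjusted p = 0.000148), which was just short of the fold required for a call. The SERIPH 2nd-step listing began at the annotated gene end on chromosome 9, at position 105776630, and reached position 105861629 in replicate 1.

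Among the genes listed in both SERIPH 2nd-step libraries and no hiAGPC library, the highest SERIPH 2nd-step FPKM belonged to POLR2J3, DNAJC7, RRP1, DNMT1 and PRR12. RRP1, a ribosome biogenesis factor, had 1.66 and 1.63 in the SERIPH 2nd step and 0.97 and 0.95 in hiAGPC (log2 fold change 0.72 ± 0.112, limma adjusted p = 0.000595). These values are over a region of 204999 bases set by a library of the DoG-inducing condition, with 6.72% of its bases in same-strand exons of other genes. The listed control DoG of RRP1 was 15 and 10 kb long. DNMT1, the maintenance DNA methyltransferase, went against its listing. Its FPKM was 1.40 and 1.65 in the SERIPH 2nd step and 2.57 and 2.32 in hiAGPC, with a log2 fold change of -0.65 ± 0.110 (adjusted p = 0.00107). Its FPKM region was 25 kb long and set by a library of the DoG-inducing condition, with 13.96% of its bases in exons of another gene on the same strand, among them those of EIF3G, a translation initiation factor gene, whereas the listed control DoG was 10 kb long. The DoGs of DNAJC7, a co-chaperone gene, and PRR12 had log2 fold changes of -0.28 ± 0.124 and -0.22 ± 0.248, and neither passed the test (adjusted p = 0.125 and 0.600). Their FPKM regions of 84999 and 44999 bases were also set under the DoG-inducing condition, with 2.84% and 15.5% in such exons. The listed control DoGs of both were 10 kb long.

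In the reverse set, the highest hiAGPC FPKM belonged to TET1, XRCC2, ZNF724, SERINC1 and H4C15. TET1, which oxidizes methylated cytosine in DNA, had 2.94 and 2.89 in hiAGPC and 1.30 and 1.17 in the SERIPH 2nd step, a log2 fold change of -1.18 ± 0.230 (adjusted p = 0.00263). Same-strand exons of another gene covered 22.95% of the TET1 region. XRCC2, which acts in homologous recombination, had 2.19 and 2.11 in hiAGPC and 1.13 and 1.29 in the SERIPH 2nd step. Its log2 fold change was -0.78 ± 0.201 (adjusted p = 0.0129), short of the fold required.

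Among the 372 DoGs listed in all 4 libraries, 175 were longer on average in the SERIPH 2nd step, 169 were equal and 28 were shorter. The ratio of the lengths had a geometric mean of 1.21, and of 1.23 and 1.20 in replicates 1 and 2. The 2 lengths from the SERIPH 2nd step exceeded the 2 from hiAGPC for 103 DoGs (27.7% of the 372) and were shorter for 5 (1.34%). Of the 205 DoGs with no other gene on the same strand inside the longest of the 4 regions, 42 (20.5%) had both SERIPH 2nd-step regions longer. The ratio was larger for DoGs that were longer in hiAGPC. It was 1.17 for the 176 DoGs at 10 kb in hiAGPC, which could not become shorter, 1.22 for the 121 of up to 20 kb, 1.31 for the 58 of up to 50 kb and 1.33 for the 17 over 50 kb, of which 14 were longer in the SERIPH 2nd step and 2 were shorter. No test was made over DoGs, because they are not replicates.

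The length ratio was highest for THOC3, a subunit of the THO complex that couples transcription to mRNA export. Its DoG was 245 and 260 kb long in the SERIPH 2nd step and 15 and 30 kb in hiAGPC, a ratio of 11.2. In the SERIPH 2nd step it reached from position 175916676 of chromosome 5 down to position 175656677, a region that holds 2 other genes on the same strand. OR2D2, an olfactory receptor gene, followed with 90 kb in each SERIPH 2nd-step replicate, while hiAGPC gave 10 and 20 kb. TIMM10B, for a mitochondrial import protein, had 50 kb in both against 10 kb in both. GPR135, an orphan receptor gene, had 70 and 75 kb against 15 kb in both, with no other gene on its strand in the region. KIAA1586 had 110 kb in both against 25 kb in both, and exons of ZNF451 lie inside this longer region.

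Greater length went with higher FPKM in some of these DoGs and not in others. The FPKM of OR2D2 was 0.94 and 0.96 in the SERIPH 2nd step and 0.50 and 0.54 in hiAGPC (log2 fold change 0.76 ± 0.0809, adjusted p = 4.91e-05). For KIAA1586, FPKM over the longer region was 1.53 and 1.54 against 1.73 and 1.72, a log2 fold change of -0.16 ± 0.129 that did not pass the test (adjusted p = 0.425). Over all shared DoGs with FPKM, the median log2 fold change was 0.45 for the 169 that were longer, 0.06 for the 162 of equal length and -0.19 for the 28 that were shorter. Length and FPKM come from the same reads, and FPKM is mostly taken over the longest listed region, so these medians are a description.

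The lowest ratios belonged to MFSD14CP, ANO7, RPL34, PBDC1 and XPA. MFSD14CP, a pseudogene, was listed at 10 kb in 3 libraries and at 135 kb in hiAGPC replicate 2, so 1 library set its ratio of 0.138. RPL34, which encodes a protein of the large ribosomal subunit, was 10 kb long in each SERIPH 2nd-step replicate and 15 kb in each hiAGPC replicate. PBDC1 had the same 4 lengths, and its FPKM was called lower in the SERIPH 2nd step.

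**Figure D2:**
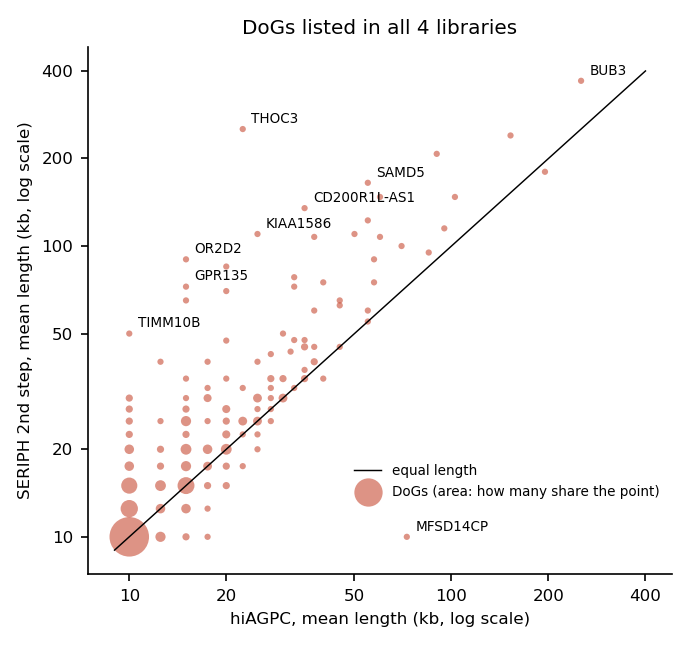
Mean length of the 372 DoGs listed in all 4 libraries in hiAGPC (horizontal axis, kb, log scale) and in the SERIPH 2nd step (vertical axis, kb, log scale). The area of a point grows with the number of DoGs at that position, and the line marks equal length. Above the line lie 175 DoGs, with THOC3 at 22.5 and 252.5 kb, and below it lie 28.

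In FPKM, a DoG was called when its Benjamini-Hochberg adjusted p was under 0.05 and its log2 fold change was 1 or more in size, in a limma fit of log2(FPKM + 0.1) over all 16 libraries, which understates changes of low values. Of the 3139 DoGs, 27 (0.86%) were called higher in the interphase fraction, and 46 (1.47%) were called lower. With the adjusted p alone, 632 (20.1%) were higher and 205 (6.53%) lower, and after centring of each library on its median 345 and 331. The median log2 fold change over all DoGs was 0.11. Centring moved it by 0.152 and gave 5 higher and 69 lower calls, so that the lower calls went from 63.0% to 93.2% of all calls, and 5 of the 27 higher calls (THOC3, HCCS-DT, SAMD5, BUB3 and STK33) and all 46 lower calls were kept. The balance turned the other way with a pseudocount of 0.01, which gave 168 higher and 106 lower calls (38.7% lower), and among DoGs listed in at least 1 of the 4 libraries, with 26 higher and 16 lower calls (38.1% lower). The higher calls ran from 2.01 to 2.47-fold, and the lower calls from 2.02 to 15.5-fold. BALR6, at a log2 fold change of 1.01, was just inside the higher threshold and TMEM38B just outside. PTCD3, at -1.01, was just inside the lower threshold and H4C15, at -0.97, just outside.

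**Figure D3:**
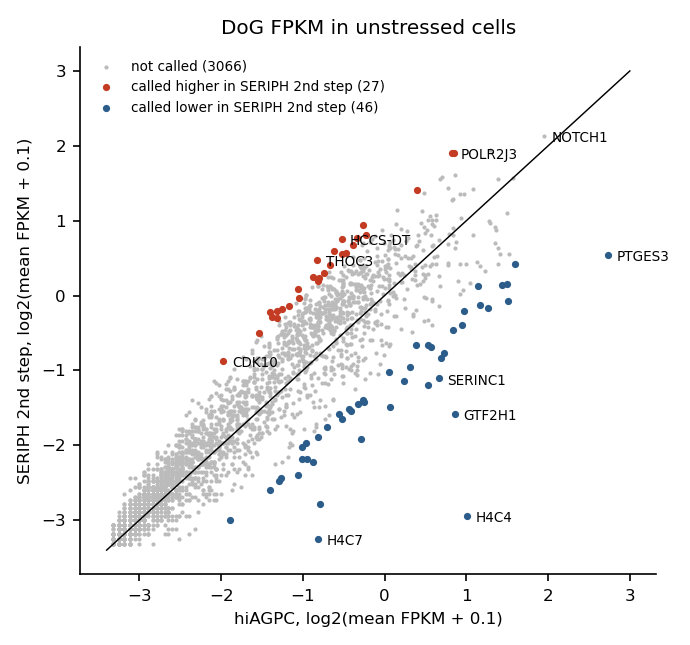
FPKM of the 3139 DoGs in control cells as log2(mean FPKM + 0.1) of hiAGPC (horizontal axis) and of the SERIPH 2nd step (vertical axis), with 27 DoGs called higher in the SERIPH 2nd step, 46 called lower, and the line of equal values. The higher calls lie in a band near the cloud, whereas H4C4, H4C7, GTF2H1 and PTGES3 lie far below it.

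The DoGs called higher included those of 2 THO complex genes. The THOC3 DoG had FPKM of 1.34 and 1.25 in the SERIPH 2nd step and 0.46 and 0.47 in hiAGPC (log2 fold change 1.30 ± 0.103, adjusted p = 7.03e-06). In the conventional libraries it stood at 0.10 and 0.09. The DoG of THOC2, the scaffold subunit of the same complex, had 1.06 and 1.09 against 0.53 and 0.42 (log2 fold change 1.04 ± 0.152, adjusted p = 0.000412), and it was listed in both SERIPH 2nd-step libraries and no hiAGPC library. Of the 12 DoGs of mRNA export genes with FPKM, these 2 were called higher and none lower, beside 0.86% and 1.47% of all DoGs. By the adjusted p alone, 3 were higher and 3 lower, and the lowest log2 fold change was -0.97. The median of the 12 was 0.07 on the log2 scale. Centring turned that median to -0.08 and left THOC2 short of the fold, at 0.89, as did leaving out hiAGPC replicate 2, at 0.90.

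Several of the higher DoGs ran far past their genes. BUB3 had FPKM of 1.89 and 1.77 in the SERIPH 2nd step and 0.73 and 0.74 in hiAGPC over a region of 495 kb (log2 fold change 1.21 ± 0.0739, adjusted p = 1.35e-06). SAMD5, a SAM domain gene, had 1.41 and 1.42 against 0.54 and 0.56 over 175 kb (1.22 ± 0.0777, adjusted p = 1.35e-06). It was listed at 155 and 175 kb in the SERIPH 2nd step and at 55 kb in both hiAGPC libraries. Both were at or below 0.21 in all 4 conventional and SERIPH 1st-step control libraries, so their signal was highest in the interphase fraction and lowest in the unheated extracts.

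SUMF1, whose product activates sulfatases, had FPKM of 0.79 and 0.75 against 0.31 and 0.29 (log2 fold change 1.12 ± 0.0711), and its DoG was listed at 110 and 60 kb in the SERIPH 2nd step only. STK33, a protein kinase gene, had 0.77 and 0.74 against 0.30 and 0.26 (1.17 ± 0.0736) and was listed at 40 and 35 kb in the SERIPH 2nd step only. Both had an adjusted p of 1.35e-06. The groups did not overlap for either DoG, as was so for all 27 higher calls and for 44.1% of all DoGs in this direction. CDK10, a cyclin-dependent kinase gene, had lower values, 0.44 and 0.45 against 0.16 and 0.15, and was the single higher call that none of the 4 libraries listed. EIPR1, for a protein of endosomal recycling, had 0.74 and 0.70 against 0.30 and 0.27. ZNF146, a zinc finger gene, had 1.14 and 1.03 against 0.47 and 0.42, and USP10, a deubiquitinase gene, had 0.52 and 0.70 against 0.26 and 0.23. USP10 fell short of the fold without SERIPH 2nd-step replicate 2 (0.85) or hiAGPC replicate 2 (0.97).

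Noncoding RNA genes made up 6 of the 27 higher calls (22.2%) and 2 of the 46 lower calls (4.35%), beside 8.22% of all DoGs. With the adjusted p alone, they made up 46 of the 632 higher (7.28%) and 8 of the 205 lower DoGs (3.90%), so the larger share was limited to the calls. Of the 6, HCCS-DT alone was kept on centring. HCCS-DT, which is transcribed away from the gene for cytochrome c heme lyase, had FPKM of 1.55 and 1.64 against 0.69 and 0.50 (log2 fold change 1.30 ± 0.152, adjusted p = 9.00e-05). FTX, a lncRNA gene of the X-inactivation centre, had 0.98 and 1.28 against 0.47 and 0.53 (1.03 ± 0.145, adjusted p = 0.000329). CD200R1L-AS1 had 1.37 and 1.40 against 0.63 and 0.61 and was listed at 135 kb in each SERIPH 2nd-step replicate, against 50 and 20 kb in hiAGPC. LENG8-AS1 had 1.35 and 1.86 against 0.65 and 0.73, the widest spread between replicates among the 12 highest calls on the log2 scale. FTX fell short of the fold without SERIPH 2nd-step replicate 2 (0.85) or hiAGPC replicate 1 (0.95), and LENG8-AS1 without SERIPH 2nd-step replicate 2 (0.88). LENG8-AS1 also missed the threshold when the 4 libraries were fitted alone (adjusted p = 0.0583), and HCCS-DT with a pseudocount of 0.01 (adjusted p = 0.0535).

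Some higher calls rest on genes with close copies, where reads are hard to assign even when unique alignments are kept. POLR2J3 and POLR2J2, near-identical copies of a gene for an RNA polymerase II subunit, lie close to each other on chromosome 7. Their DoGs had 3.51 and 3.81 against 1.77 and 1.58 for POLR2J3, and 3.52 and 3.76 against 1.69 and 1.70 for POLR2J2. The values of the pair were nearly equal in each library, so they are uncertain as separate results. ZDHHC11, a palmitoyltransferase gene with a close paralog, had 0.99 and 0.94 against 0.40 and 0.36.

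**Figure D4:**
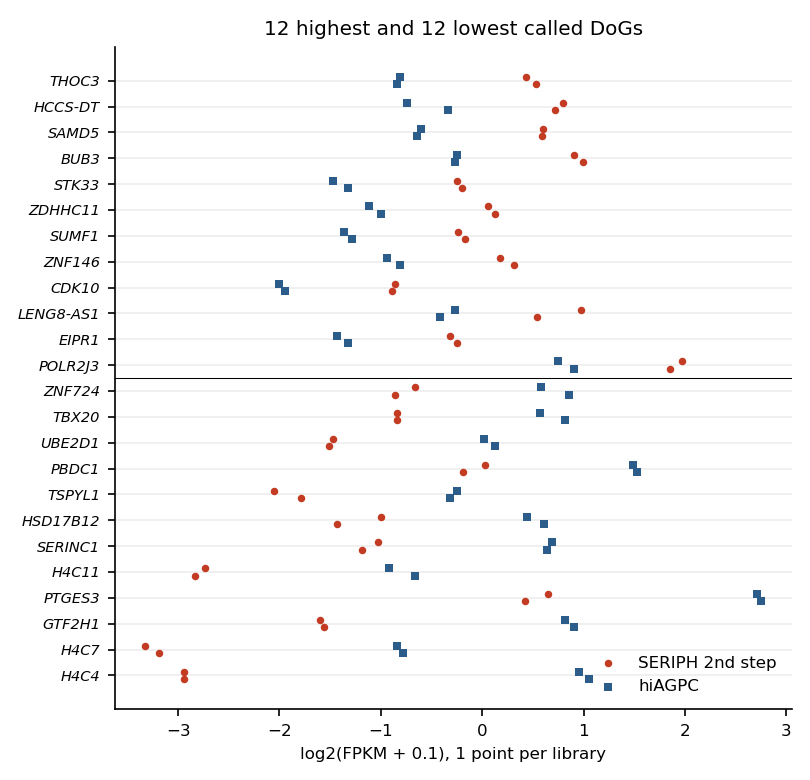
FPKM of the called DoGs at the extremes of the comparison, 12 higher and 12 lower, as log2(FPKM + 0.1) on the horizontal axis, with 1 point per library. The higher calls are above the horizontal line and the lower calls below it. In each row the 2 SERIPH 2nd-step points lie apart from the 2 hiAGPC points, as held for all 27 higher and all 46 lower calls.

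The lowest DoG was that of the histone H4 gene H4C4, and those of H4C7 and H4C11 were among the 5 lowest. H4C4 had 0.03 FPKM in each SERIPH 2nd-step replicate, against 1.98 and 1.84 in hiAGPC, a log2 fold change of -3.95 ± 0.0994 (adjusted p = 4.10e-10). In the conventional libraries it had 3.26 and 3.17, and in the SERIPH 1st step 4.10 and 3.12. H4C7 was listed at 0.01 and 0.00 in the SERIPH 2nd step against 0.48 and 0.46 in hiAGPC (-2.44 ± 0.172, adjusted p = 3.12e-06). H4C11 had 0.04 and 0.05 against 0.53 and 0.43 (-1.99 ± 0.107, adjusted p = 1.07e-06). None of these 3 was listed as a DoG in any of the 4 libraries, and their FPKM regions were set by libraries of the DoG-inducing condition. The regions hold exons of other histone genes on the same strand, namely H1-2, H1-6 and H2BC4 for H4C4, H1-3 for H4C7, and H2AC16 and H2BC15 for H4C11. Their reads cannot be told apart here from readthrough.

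The list of replication-dependent histones was chosen with earlier results of these data known. Of its 23 DoGs with FPKM, 5 were called lower and 0 higher, beside 1.47% and 0.86% of all DoGs. By the adjusted p alone, 12 were lower and 0 higher, beside 6.53% and 20.1% of all DoGs. The median log2 fold change was -0.29, beside 0.11 over all DoGs. The other lower calls were H2BC26, with 0.12 in each SERIPH 2nd-step replicate against 0.40 and 0.39, and H4C14, with 0.44 and 0.39 against 1.06 and 1.23. H4C14 and H4C15 are near-identical neighbours on opposite strands, so the assignment of reads between them is uncertain. The stem-loop was found in the last 100 bases of the annotated gene for 11 histone DoGs with FPKM. Their median log2 fold change was -0.37, with 3 called lower. For the other 12 it was not found there, and they had -0.23, with 2 called lower. Among these 12, the annotated genes of H4C14 and H2BC26 are 7111 and 5002 bases long, against 403 bases for H4C4. The split is therefore one of annotated gene ends and does not show that the mRNAs of the 12 lack the stem-loop. No histone gene was listed in both SERIPH 2nd-step libraries, and 2 were in both hiAGPC libraries.

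Other low DoGs had exons of neighbouring genes on the same strand inside their regions. GTF2H1, a subunit of the general transcription factor TFIIH, had FPKM of 0.24 and 0.23 in the SERIPH 2nd step and 1.78 and 1.66 in hiAGPC (log2 fold change -2.44 ± 0.147, adjusted p = 1.35e-06), and its region holds exons of LDHA, for lactate dehydrogenase. PTGES3, the gene of the HSP90 co-chaperone p23, had 1.24 and 1.47 against 6.63 and 6.46 (-2.20 ± 0.126, adjusted p = 1.35e-06), with exons of ATP5F1B, for a subunit of ATP synthase. UBE2D1, a ubiquitin-conjugating enzyme gene, had 0.25 and 0.26 against 0.99 and 0.91, with exons of TFAM, for a mitochondrial transcription factor. TSPYL1 had 0.19 and 0.14 against 0.70 and 0.74, with exons of its relative TSPYL4. SLC41A1, a magnesium transporter gene, had 0.76 and 0.83 against 2.32 and 2.29 over a region of 331534 bases with exons of ELK4, NUCKS1, RAB29 and SLC45A3. In each of these, both hiAGPC values were above both SERIPH 2nd-step values. This held for all 46 lower calls and for 14.6% of all DoGs, so it adds nothing to the call.

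A further 9 of the 46 lower DoGs had no exon of another gene on the same strand in their region: HSD17B12, PBDC1, ZNF724, SSR3, BTG3, BRCC3, NEK6, TRIM32 and CDK1. HSD17B12, an enzyme of fatty acid elongation, had FPKM of 0.27 and 0.40 in the SERIPH 2nd step and 1.43 and 1.26 in hiAGPC (log2 fold change -1.75 ± 0.144, adjusted p = 9.08e-06). PBDC1 had 0.78 and 0.92 against 2.78 and 2.71 (-1.59 ± 0.166, adjusted p = 4.62e-05). ZNF724, a zinc finger gene, had 0.45 and 0.53 against 1.71 and 1.40, and NEK6, a mitotic kinase gene, had 0.57 and 0.47 against 1.47 and 1.30. The DoGs of HSD17B12 and ZNF724 were listed in both hiAGPC libraries and in no SERIPH 2nd-step library. SERINC1, a membrane protein gene with exons of another gene in 24.3% of its region, had 0.34 and 0.39 against 1.46 and 1.51, and TBX20, a T-box transcription factor gene with such exons in 39.2% of its region, had 0.46 in both against 1.66 and 1.38.

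The called DoGs thus differed in the exons their regions hold. Exons of other genes on the same strand lay in 37 of the 46 lower regions (80.4%) and 11 of the 27 higher regions (40.7%), beside 1524 of all 3139 (48.5%). They covered at least 5% of the region in 23 of the 46 lower, 2 of the 27 higher and 16.7% of all. With the adjusted p alone, such exons lay in 151 of the 205 lower regions (73.7%) and 358 of the 632 higher regions (56.65%). The share of the lower DoGs was thus above that of all DoGs in either set. That of the higher DoGs was below it among the calls alone. Among the 1615 DoGs without such an exon, 16 were called higher (0.991%) and 9 lower (0.557%), and among the 1524 with one, 11 were called higher (0.722%) and 37 lower (2.43%). Of the 46 lower calls, 30 (65.2%) were of DoGs listed in none of the 4 libraries, beside 75.3% of all DoGs with FPKM, and 26 of these 30 regions held such exons. Of the 27 higher DoGs, 24 were listed in both SERIPH 2nd-step libraries. For 22 of the 27, the FPKM region was set by a control SERIPH 2nd-step library, so the region and the value come from the same reads.

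Higher and lower calls also lay on different sides of the unheated extracts. The median FPKM of the 27 higher DoGs was 1.13 in the SERIPH 2nd step, 0.475 in hiAGPC, 0.16 in the conventional and 0.175 in the SERIPH 1st-step libraries. The 46 lower DoGs had medians of 0.27, 0.945, 1.19 and 1.23 in the same order. The median distance to the next gene on the same strand was 40.1 kb after the higher, 14.9 kb after the lower and 38.9 kb after all DoGs. The hexamer was found in 8 of the 27 higher gene ends (29.6%) and 25 of the 46 lower ones (54.3%), beside 53.1% of the 3139. With the adjusted p alone the order was reversed, with 345 of the 632 higher (54.6%) and 94 of the 205 lower gene ends (45.85%). These shares were not tested. No pair of regions called in the same direction overlapped on the same strand.

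The remaining gene lists held few calls, to be read beside the 0.86% of all DoGs called higher and the 1.47% called lower. No list was tested against these shares. No ribosomal protein DoG was called among 43, with a median log2 fold change of 0.10. By the adjusted p alone, 10 were higher and 6 lower, beside 20.1% and 6.53% of all DoGs. No DoG was called among 46 of splicing factors, 22 of oxidative phosphorylation, 13 of 3′ end processing and termination, 10 of snoRNA hosts and 10 of microRNA hosts, with medians of 0.10, 0.14, 0.20, 0.15 and 0.19. Zinc finger genes had 1 higher call, ZNF146, and 1 lower call, ZNF724, among 67 (median 0.05). Antisense lncRNAs had 2 higher calls, LENG8-AS1 and CD200R1L-AS1, and 1 lower call, HOXA10-AS, among 127 (median 0.07). Divergent lncRNAs had 1 higher call, HCCS-DT, among 32 (median 0.06), and solute carriers had 1 lower call, SLC41A1, among 47 (median 0.06). Proteasome and ubiquitin genes had USP10 higher and UBE2D1 lower among 36 (median 0.17), and regulatory lncRNAs of the nucleus had FTX higher among 4 (median -0.06). General transcription factors had POLR2J2 and POLR2J3 higher and GTF2H1 and TAF1B lower among 14 (median 0.14), where TAF1B belongs to the initiation factor of RNA polymerase I. TAF1B had 0.38 and 0.41 against 0.86 and 1.02, and without hiAGPC replicate 2 its log2 fold change was -0.96. Of the 13 lists with a positive median, 9 turned negative on centring.

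Of the 5 DoGs with the highest mean FPKM over the 4 libraries, PTGES3 alone was called. The DoG of NOTCH1, a cell surface receptor gene, had the highest SERIPH 2nd-step FPKM, 4.31 and 4.29 against 3.89 and 3.61 in hiAGPC, and the difference did not pass the test (adjusted p = 0.384). It was listed in none of the 4 libraries, and 18.6% of its region lay in same-strand exons of another gene, those of SEC16A included. AMZ2P1, a pseudogene, had 3.54 and 3.95 against 2.32 and 2.35 (log2 fold change 0.66 ± 0.0866, adjusted p = 0.000218). ANKRD36C had 2.91 and 2.75 against 2.46 and 2.56, with an adjusted p of 0.341. ZFP14, a zinc finger gene, had 2.88 and 2.84 against 2.84 and 2.88, the same values in reverse order. Same-strand exons of other genes covered 43.7% of the region of ZFP14, 19.1% of that of ANKRD36C and 6.63% of that of AMZ2P1.

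The contrast between the preparations was then compared with the same contrast under the DoG-inducing condition, from 4 other libraries. The difference of the log2 fold changes, control minus DoG-inducing, was called positive for 36 DoGs (1.15%) and negative for 175 (5.58%). The median difference over all DoGs was -0.39. Centring moved it by 0.330 and gave 121 positive and 28 negative calls, in which all 36 positive and 28 of the 175 negative calls were kept. Of the 36 positive calls, 30 were DoGs listed in at least 1 of the 4 control libraries, and of the 175 negative calls, 169 were DoGs listed in none of them, beside 776 and 2363 of the 3139. Of the 2693 genes listed in none of the 4, 2630 were listed under the DoG-inducing condition, so the way such DoGs entered the data bears on the direction of their difference.

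The 3 lowest differences were those of histone H4 genes, whose log2 fold changes under the DoG-inducing condition were -0.22 for H4C4, -0.06 for H4C7 and -0.10 for H4C11. The difference was -3.73 ± 0.141 for H4C4 (adjusted p = 3.92e-08), -2.38 ± 0.243 for H4C7 (6.23e-05) and -1.89 ± 0.152 for H4C11 (3.12e-05), and each was also called after centring. H4C4 had FPKM of 4.39 and 4.48 in the SERIPH 2nd step of treated cells against 5.16 and 5.18 in hiAGPC. H4C7 had 0.94 and 0.99 against 0.99 and 1.03. Of the 46 DoGs called lower in control cells, 22 had a called negative difference, among them GTF2H1 and UBE2D1, and 4 a positive one. The difference contains the control contrast by which these DoGs were chosen, so this count is a description.

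Positive differences included DoGs whose contrast was higher in control cells and others that fell in the SERIPH 2nd step of treated cells. HCCS-DT had a difference of 1.48 ± 0.214 (adjusted p = 0.000274), and under the DoG-inducing condition its DoG had 0.01 in each SERIPH 2nd-step replicate, against 0.03 and 0.02 in hiAGPC. Of the 27 higher DoGs, 7 had a called positive difference, among them SAMD5, STK33, SUMF1 and CD200R1L-AS1, and none a negative one, again with the control contrast as a part of the difference. In treated cells the DoGs of STK33, SUMF1 and CD200R1L-AS1 had 0.02 to 0.09 FPKM in the SERIPH 2nd step and hiAGPC. Like the values of HCCS-DT, these are under the 0.1 added before the logarithm, so the differences of these 4 DoGs largely repeat the control contrast. ZFP14, which did not differ in control cells, had 0.19 and 0.18 in the SERIPH 2nd step of treated cells against 0.75 and 0.84 in hiAGPC, and its difference was 1.65 ± 0.137 (adjusted p = 3.12e-05). BMS1P1, a pseudogene, had 1.21 and 1.20 against 0.89 and 0.97 in control cells and 0.03 and 0.01 against 0.22 and 0.17 in treated cells (difference 1.64 ± 0.172). For NEK6, the difference of 1.76 ± 0.270 came from a larger fall in treated cells, where it had 0.18 and 0.06 against 1.57 and 1.67. CDK10, higher in control cells, had 8.07 and 7.76 against 3.01 and 2.61 in treated cells, and its difference did not pass the test (-0.37, adjusted p = 0.0913).

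**Figure D5:**
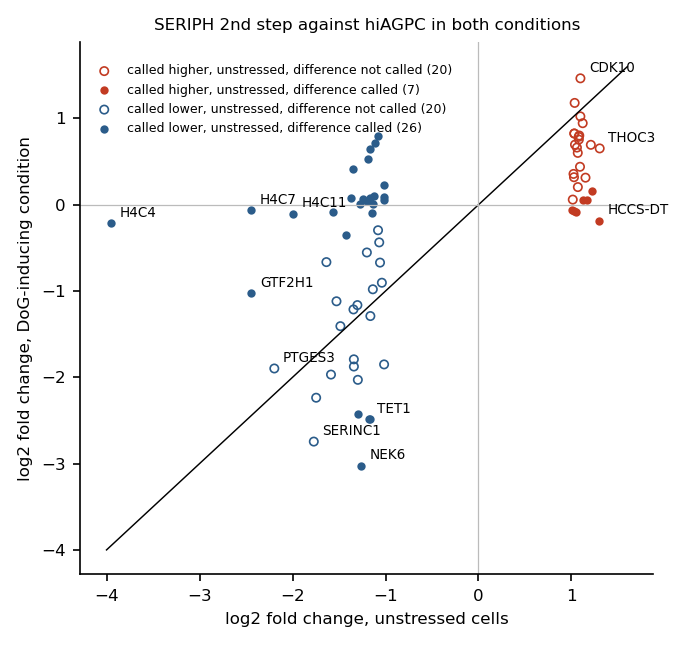
Log2 fold change of FPKM, SERIPH 2nd step against hiAGPC, in control cells (horizontal axis) and under the DoG-inducing condition (vertical axis) for the 73 DoGs called in control cells, with the line of equal values. Filled points mark the 7 higher and 26 lower DoGs whose difference between the conditions was called, and the histone H4 genes lie at the left near 0 on the vertical axis.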

How the data were processed

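The 16 libraries fell into 8 groups, 4 preparations in 2 conditions, and 0 per-sample columns were left without a library. According to the methods and the submitters' processing notes, trimming used fastp 0.25.0, ribosomal reads were filtered with Bowtie2 2.5.4, and unique alignments to GRCh38 came from STAR 2.7.11b. ARTDeco then gave 1 DoG list per library (length of at least 10 kb, windows of 5 kb, coverage of at least 0.5, GENCODE v49). The deposited FPKM were computed by the authors over 1 region per gene and rounded to 0.01. Which reads scale them is not given in the sources used here, so whole reads could not be recovered. Depth is therefore unknown, and counting intervals are not given.

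Here, log2(FPKM + 0.1) was fitted over all 16 libraries in limma 3.58.1 (R 4.3.3) with an intensity trend, and p-values were adjusted by the Benjamini-Hochberg method over 3139 DoGs. Each SE is that of the fit. For the numbers and mean lengths of listed DoGs, a two-sided exact permutation test over the 4 libraries was used. Tables were handled with Python 3.11.15, pandas 2.3.3, numpy 2.4.6 and scipy 1.17.1, plots with matplotlib 3.10.9 and sequences with samtools 1.23.1. Genes came from GENCODE v44 on GRCh38, which held 3495 of the 3505 identifiers. The fit was tested on simulated data of the control contrast with 3139 DoGs. It recovered 100 of 100 changes of 1.5 and 100 of 100 changes of 2 on the log2 scale, with 0 of 2939 others called. Changes were placed only in DoGs with a mean FPKM of at least 0.1 over the 4 libraries, and 1584 DoGs lay below that. The simulated noise was normal with 1 SD per DoG, as the fit assumes, and values were not rounded. The recovery therefore does not cover low values or noise of another form. Recovery at 1.006 to 1.303 on the log2 scale, the range of the 27 higher calls, was not tested. The members and gene lists were chosen with earlier results of these data known. Genes named are TMEM38B, the 12 highest and 12 lowest calls, the 5 highest and 5 lowest length ratios, the 5 most abundant DoGs listed in 1 preparation alone and over the 4 libraries, the 3 highest and 3 lowest called differences between conditions, and called members of the lists. BALR6, PTCD3, the exon-free lower calls and genes inside regions were named after their values were seen. Gene expression and coverage were not analysed here.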

Additional observations from a re-analysis of the deposited data

Results flagged for a closer look

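The contrast between the SERIPH 2nd step and hiAGPC differed between unstressed cells and the DoG-inducing condition for 36 DoGs in the positive and 175 in the negative direction, by the limma test of the difference itself (control minus DoG-inducing, on the log2 scale). Among the DoGs described singly, the negative differences were -3.73 for H4C4, -2.38 for H4C7, -1.89 for H4C11, -1.81 for H2BC26, -1.75 for HOXA10-AS, -1.48 for UBE2D1, -1.42 for GTF2H1, -1.28 for H4C14 and -1.07 for SLC41A1. The positive differences were 1.06 for SAMD5, 1.07 for SUMF1, 1.11 for STK33, 1.12 for CD200R1L-AS1, 1.31 for TET1, 1.48 for HCCS-DT, 1.64 for BMS1P1, 1.65 for ZFP14 and 1.76 for NEK6. After each library was centred on its median, 0 of these 18 differences changed sign, and those of H4C14 (-0.95) and SLC41A1 (-0.74) fell short of the fold required. Groups of 2 libraries were too small for a test of single outlying libraries.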

How the results depend on the processing

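A minimum length of 20 kb left 186 genes in both SERIPH 2nd-step libraries and 95 in both hiAGPC libraries, a ratio of 1.96 in place of 1.40. DoGs with no other gene on their strand had a length ratio of 1.16, and 42 of them were longer in both SERIPH 2nd-step libraries. In FPKM, the adjusted p alone gave 632 higher and 205 lower DoGs. Pseudocounts of 0.01 and 1 gave 168 and 0 higher and 106 and 4 lower calls, and median log2 fold changes of 0.29 and 0.014 in place of 0.11. Centring gave 5 higher and 69 lower calls and a median of -0.041. DoGs listed in a compared library gave 26 higher and 16 lower calls, because 30 lower calls were of unlisted DoGs, with a median of 0.35. DoGs averaging 0.1 FPKM or more had a median of 0.25. For the difference between conditions, centring gave 121 positive and 28 negative calls, a pseudocount of 1 gave 0 and 1, and one of 0.01 gave 64 positive calls. With single replicates left out, the higher calls ran from 26 to 35 and the lower from 46 to 48, and the positive differences from 36 to 55, the most without SERIPH 2nd-step replicate 2 of the DoG-inducing condition, and the negative ones from 153 to 231. Exons of protein-coding genes alone lay in 11.1% of the higher and 45.7% of the lower regions, and exons of at least 5% of the region in 7.41% and 50.0%. With the adjusted p alone, exons of protein-coding genes lay in 26.7% of the higher and 41.95% of the lower regions, beside 19.7% of all.

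Of the 36 DoGs named singly that were called, 32 fell short of the threshold with a pseudocount of 1, which compresses low values, and 12 on centring, and 0 changed direction. Extractions were made from shared samples, but whether the replicate numbers mark them is not stated, and deviations of same-numbered control libraries correlated at -0.039 between the SERIPH 2nd step and hiAGPC. With the numbers taken as pairs, the replicate block gave 27 higher and 46 lower calls and 36 and 175 differences, as did the fit without it. The depth per library is not known, and values near the rounding step of 0.01 are coarse.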
